A study of Sus scrofa domesticus with 34 samples.

Results

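A set of 9 genes that encode cargo of the regulated secretory pathway was followed through 34 pig libraries: the granule proteins VGF, SCG2 and CHGB, and the neuropeptide precursors SST, NPY, VIP, CCK, TAC1 and PENK. The genes were chosen by symbol, matched to the Ensembl identifiers ENSSSCG00000039053 (VGF), ENSSSCG00000023032 (SCG2), ENSSSCG00000039779 (CHGB), ENSSSCG00000033815 (SST), ENSSSCG00000016718 (NPY), ENSSSCG00000004078 (VIP), ENSSSCG00000011277 (CCK), ENSSSCG00000023592 (TAC1) and ENSSSCG00000006243 (PENK), and make up 9 of the 31907 genes in the count files. All 9 were among the 13974 genes that passed the filter on low counts and were tested. The 9 were chosen with earlier results of these data known.

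Granule proteins of the granin group are packed into dense-core vesicles in the trans-Golgi network, where they help to condense the cargo, and are themselves cut into peptides. Neuropeptide precursors travel in the same vesicles, are cleaved by prohormone convertases and trimmed by carboxypeptidase E, and are released on stimulation to act on G protein-coupled receptors. In the cerebral cortex SST, NPY and VIP mark classes of inhibitory interneurons and CCK is made by both inhibitory and excitatory neurons, whereas PENK and TAC1 are best known from the projection neurons of the striatum.

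The libraries came from pigs fed 4 vitamin D regimens in a grower and a finisher phase, and each was labelled muscle. The 25(OH)D diet, with 8 pigs, held 2000 IU (grower) and 1500 IU (finisher) calcidiol per kg feed and no cholecalciferol. The combination diet, with 8 pigs, held 2000 and 1500 IU cholecalciferol plus 1000 IU calcidiol in both phases. The increased cholecalciferol diet, with 10 pigs, held 3000 and 2500 IU, and the standard cholecalciferol diet, with 8 pigs and named the control in the labels, held 2000 and 1500 IU. Calcidiol, or 25(OH)D, is the hydroxylated form of cholecalciferol that circulates in blood. Each diet had 4 castrated males, with 6 females on the increased diet and 4 females on each of the others. Breed and age are not used here.

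The transcripts of these libraries included many of neurons besides those of skeletal muscle. Summed over 10 pan-neuronal genes they gave 5293 to 9588 CPM (counts scaled to 1000000 per library) per library, with a median of 6969 CPM, against 974 to 6816 CPM with a median of 2808 CPM for 9 skeletal muscle genes. These were 10 of 11 pan-neuronal and 9 of 15 muscle genes listed. MYH1, MYH2, MYH4, MYH7, MYLPF and MB had no matched identifier and are missing from the muscle sum. The sums therefore do not measure the shares of the 2 tissues. Both sets were present in all 34 libraries, and the labelled tissue is therefore not used here as a description of the source cells. Markers of other peptide-secreting tissues were low in most libraries, with exceptions. The sum of 13 hypothalamus and pituitary genes was 0 to 4.79 CPM, with CGA (up to 3.59 CPM, at 0 in 7 libraries) and PRL (up to 2.22 CPM, at 0 in 8). The sum of 14 islet, chromaffin and enteric genes had a median of 2.56 CPM and reached 161 CPM in combination replicate 3. TH was at 140 CPM in that library and at 0 in 10 libraries. DBH, on the same list, was highest in 25(OH)D replicate 3, at 1.16 CPM, and at 0 in 29 libraries. Which cells gave the TH of combination replicate 3 was not tested. RET, a receptor of enteric neurons among others, reached 19.7 CPM and was at 0 in 2 libraries, and SLC18A1, a vesicular monoamine transporter, reached 1.72 CPM and was at 0 in 8. INS and GCG (pancreatic islet) and OXT (hypothalamus) were each at 0 in 32 of 34 libraries, and PNMT and PHOX2A (chromaffin and autonomic cells) in 34 of 34. Other hypothalamus and pituitary genes were low but less often absent. POU1F1 was at 0 in 16 libraries (up to 0.658 CPM), GHRH in 17 (1.12 CPM) and SIM1 in 20 (1.36 CPM). HCRT was at 0 in 25 (0.904 CPM) and AVP in 26 (0.787 CPM).

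Libraries differed in ways that bear on these genes. Total counts ran from 1.34 M to 30.4 M with a median of 6.67 M (M, 1000000 counts). The 5 libraries whose files carry the numbers 30 to 34 had the lowest depth, 1.34 M to 2.69 M, and 4 of them were combination libraries, so that this run and that diet overlap. In 4 female libraries of that run the summed Y-linked genes KDM5D and EIF1AY were at 5.66 to 7.23 CPM, against 0.562 to 4.54 CPM in the other 14 female libraries and 6.81 to 21.6 CPM in 15 castrated male libraries of the other runs. Pairs within file numbers 30 to 34 differed by a chi-square per gene of 2.27 to 3.88, against a median of 29.3 over all pairs. That measure also rises with depth. Pearson's r of log2 CPM in those pairs was 0.917 to 0.936, against a median of 0.926 over all pairs. Whether these 5 libraries are independent of each other was not tested. Combination replicate 3 stood apart by TH (tyrosine hydroxylase) at 140 CPM, against 0 to 6.22 CPM elsewhere, and by CPA1 (a pancreatic carboxypeptidase) at 128 CPM, against 0.506 to 11.4 CPM. For some results named below, the value without these libraries stands beside it.

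A regional score placed each library by its neuronal transcripts. It is the mean log2 CPM of CBLN1 and CBLN3, cerebellins that are abundant in cerebellar granule cells, minus the mean log2 CPM of TBR1 and FEZF2, transcription factors of cortical projection neurons. A step of 1 unit in the score is a 2-fold change in that ratio. Scores ran from 2.39 to 9.60 with a median of 3.74. Over all 34 libraries they fell into no separate clusters, the largest gap between neighbours being 0.70, or 9.68% of the range. The middle of the range was held mostly by libraries named above. File numbers 30 to 34 lay at 5.23 to 6.54 and combination replicate 3 at 6.07. Between 4.69 and 7.24 the only other library was 25(OH)D replicate 1 at 5.27. Without file numbers 30 to 34 and combination replicate 3, no score lay between 5.27 and 7.24. The small size of the largest gap over all 34 libraries thus depends on them. No test for clusters was run on the rest. Mean scores were 4.57 ± 1.79 on 25(OH)D (SD, n = 8), 5.36 ± 1.77 on the combination (n = 8), 4.38 ± 2.35 on increased cholecalciferol (n = 10) and 5.00 ± 2.86 on standard cholecalciferol (n = 8). By two-sided exact permutation tests no pair of diets passed the threshold, the smallest of 6 p-values being 0.346 (adjusted p = 0.853).

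On levels, CCK was the most abundant member and TAC1 the least. Because the kit reads transcript ends, CPM here count transcripts without scaling by length. CCK averaged 471 ± 271 CPM, CHGB 246 ± 121, VGF 164 ± 50.6, SCG2 79.7 ± 44.8, SST 60.8 ± 45.3, PENK 50.8 ± 22.8, NPY 35.1 ± 25.0, VIP 7.71 ± 4.97 and TAC1 4.03 ± 2.96 CPM (SD, n = 34 each). NPY was above VIP in 34 of 34 libraries and VGF above SCG2 in 33. The order of the other neighbours was looser: CCK exceeded CHGB in 26, SCG2 exceeded SST in 25, PENK exceeded NPY in 24 and SST exceeded PENK in 22 of 34 libraries.

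The members differed in how much they varied. SST ran from 4.96 to 168 CPM (33.9-fold), NPY from 3.44 to 98.7 CPM (28.7-fold) and CCK from 108 to 1144 CPM (10.5-fold). VIP spanned 0.364 to 16.0 CPM and TAC1 0.246 to 9.56 CPM, but on few counts. The lowest count in any library was 2 for VIP and 1 for TAC1, not in the libraries of lowest CPM. VGF spanned only 3.43-fold, and its SD on the log2 scale, 0.39, was below the median of 0.49 over all genes tested, against 1.52 for SST and 1.38 for NPY.

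No diet changed any of the 9 genes at an adjusted p below 0.05 (edgeR quasi-likelihood test, Benjamini-Hochberg over 13974 genes), in any of the 6 pairs of diets. The background was likewise 0% of genes called in each pair, and DESeq2 and limma-voom called no member either. At an unadjusted p below 0.05, 1 of 9 members passed for 25(OH)D against standard cholecalciferol (background 3.23%), 1 of 9 for the combination against increased cholecalciferol (4.14%), 2 of 9 for 25(OH)D against increased cholecalciferol (12%), 1 of 9 for 25(OH)D against the combination (7.57%) and none for the other 2 pairs (7.77% for increased against standard cholecalciferol, 4.34% for the combination against standard cholecalciferol). The ranges of the 2 diets overlapped for every member in every pair, 54 of 54. The share of all genes whose ranges overlap was not computed, so this is not read as particular to the members. Between females and castrated males no member passed either, with 0.0787% of genes called. None passed there at an unadjusted p below 0.05, against 6.58% of genes. Without file numbers 30 to 34 0 members and 12 genes were called between the sexes, against 11 genes over all 34 libraries.

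VGF, the granule protein that is cut into several bioactive peptides, had the smallest diet p-values. It lay between 98.5 and 157 CPM with a median of 130 CPM on 25(OH)D, between 126 and 176 with a median of 141 on the combination, between 132 and 338 with a median of 184 on increased cholecalciferol, and between 153 and 280 with a median of 164 on standard cholecalciferol. Thus 7 of 8 libraries on 25(OH)D lay below every library on standard cholecalciferol, and the eighth, replicate 2 at 157 CPM, overlapped its lowest. The log2 difference between the equal-dose diets 25(OH)D and standard cholecalciferol was -0.51 (SE 0.16, 95% interval -0.83 to -0.19, p = 0.00244, adjusted p = 1.00). Against increased cholecalciferol, 25(OH)D libraries had a log2 difference of -0.61 (SE 0.15, p = 0.000246, adjusted p = 0.306), and combination libraries one of -0.41 (SE 0.15, p = 0.00937, adjusted p = 0.931). None held after adjustment. The last difference was -0.25 (p = 0.220) without file numbers 30 to 34.

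SCG2, or secretogranin II, the precursor of secretoneurin, ran from 26.9 to 93.3 CPM on 25(OH)D, median 51.9, and from 28.3 to 208 CPM on increased cholecalciferol, median 89.2. The log2 difference was -0.92 (SE 0.32, p = 0.00683, adjusted p = 0.306), with the ranges overlapping widely. Against the combination, 25(OH)D libraries differed by -0.66 (p = 0.0519), or by -1.11 (p = 0.00797, adjusted p = 0.251) without file numbers 30 to 34 and by -0.38 (p = 0.244) without combination replicate 3. CHGB, chromogranin B, lay between 120 and 282 CPM on 25(OH)D and between 157 and 669 CPM on the combination, a log2 difference of -0.61 (SE 0.28, p = 0.0383, adjusted p = 0.653). It was -0.89 (p = 0.0225, adjusted p = 0.311) without file numbers 30 to 34 and -0.25 (p = 0.323) without combination replicate 1, the library at 669 CPM.

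For the peptide precursors the diet comparison was imprecise. SST had medians of 50.3 CPM on 25(OH)D, 36.9 on the combination, 72.0 on increased and 84.2 on standard cholecalciferol, and its lowest libraries lay at 4.96, 6.34, 5.18 and 6.64 CPM in those diets. The log2 difference of SST was -0.38 between 25(OH)D and standard cholecalciferol (95% interval -1.63 to 0.87) and -0.95 between the combination and increased cholecalciferol (-2.17 to 0.27). Over the 9 members, the 95% interval reached a 2-fold difference for 5 genes in each of those 2 pairs and in the combination against standard cholecalciferol, 6 in increased against standard cholecalciferol, and 7 in 25(OH)D against increased cholecalciferol and against the combination, so that a change of that size was not resolved at this spread.

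The remaining peptide genes overlapped across diets in the same way. NPY, precursor of neuropeptide Y, had medians of 35.6 CPM on 25(OH)D, 20.9 on the combination, 38.9 on increased and 39.9 on standard cholecalciferol. CCK, precursor of cholecystokinin, ran from 234 to 1144 CPM on 25(OH)D, from 140 to 510 on the combination, from 117 to 811 on increased and from 108 to 1023 on standard cholecalciferol. The combination thus had the lowest maximum of CCK, with a log2 difference of -0.46 from increased cholecalciferol (95% interval -1.26 to 0.33). VIP, precursor of vasoactive intestinal peptide, had medians of 9.55, 5.64, 11.0 and 6.75 CPM on 25(OH)D, the combination, increased and standard cholecalciferol. TAC1, precursor of substance P, had medians of 1.85, 5.10, 4.15 and 4.71 CPM in that order. PENK had medians of 48.1, 38.9, 47.2 and 50.5 CPM in that order, and its highest library, at 157 CPM, was on increased cholecalciferol. Combination replicate 3 held 176 CPM SCG2, 69.5 CPM PENK and 7.20 CPM TAC1 beside its high TH; the part of that library's TH-rich transcripts in these values was not tested.

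**Figure D1:**
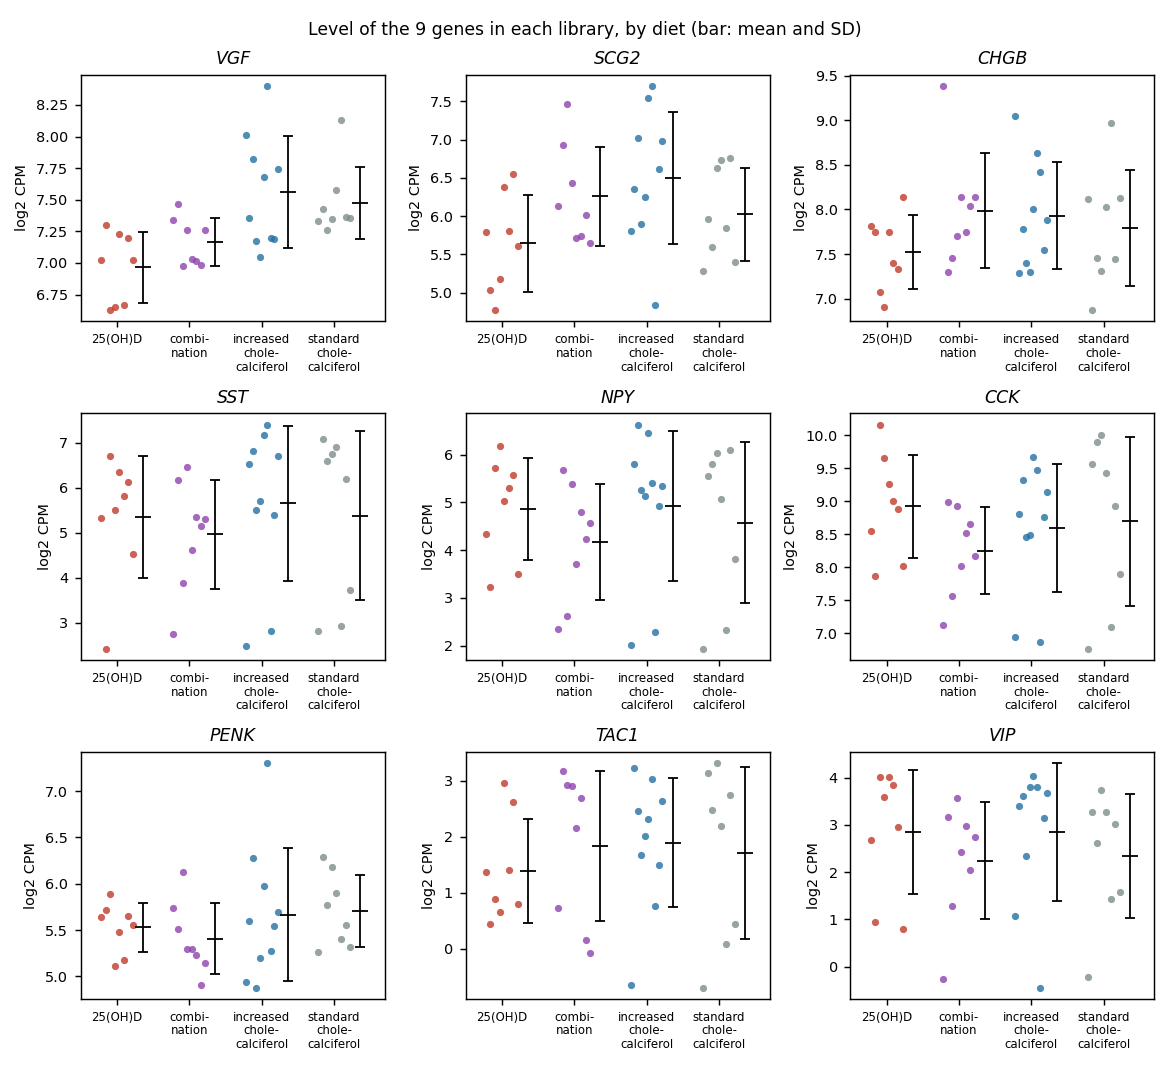
Level of each of the 9 genes in every library (log2 CPM), by diet; points are libraries and bars are the mean and SD. VGF on 25(OH)D lay between 98.5 and 157 CPM, against 153 to 280 CPM on standard cholecalciferol, while SST, NPY and CCK spread over at least 4.89-fold within 25(OH)D.

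Along the regional score, by contrast, 8 of the 9 genes changed, against a background of 37.7% of the 13970 genes outside the score (edgeR, diet and sex in the model, adjusted p below 0.05). Of these, 7 fell as the score rose (background 18.3%) and CHGB rose (background 19.3%). At an unadjusted p below 0.05 the count was also 8, against 45.5% of genes. The median slope of the members was -0.40 log2 units per unit of score, against 0.00 over all genes tested. The members and the score are read from the same libraries and share their scaling. The score also subtracts TBR1 and FEZF2, genes of cortical neurons. A fall of members or listed genes made in cortex is thus partly built into it. The members and lists were also chosen with earlier results of these data known. Their counts along the score are therefore no independent test against the background. In such bulk libraries fewer cells of a type and less RNA per cell cannot be told apart.

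SST, precursor of the inhibitory peptide somatostatin, had the steepest slope of the 9, at -0.69 (SE 0.04, 95% interval -0.77 to -0.62, adjusted p = 1.19e-17), and ranked 5 from the most negative of 13970 genes. Over the whole range of the score this slope is a 31.9-fold fall, and it stayed between -0.71 and -0.68 with any 1 library left out. NPY followed with -0.61 (SE 0.04, adjusted p = 1.43e-15, rank 29), VIP with -0.55 (SE 0.05, adjusted p = 4.02e-11, rank 60) and TAC1 with -0.54 (SE 0.07, adjusted p = 1.28e-07, rank 69). CCK fell by 0.40 per unit (SE 0.03, adjusted p = 8.00e-15, rank 259).

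The ends of the score show the raw levels. The lowest-scoring library, increased cholecalciferol replicate 6, held 142 CPM SST, 87.8 CPM NPY, 811 CPM CCK and 16.0 CPM VIP. The highest-scoring library, standard cholecalciferol replicate 1, held 6.64 CPM SST, 3.44 CPM NPY, 108 CPM CCK and 0.492 CPM VIP. CHGB was nearly equal in these libraries, at 256 CPM at the low end and 277 CPM at the high end, and VGF was at 205 CPM at the low end and 161 CPM at the high end. Within each diet the library with the least SST lay high on the score, at 7.81 on 25(OH)D, 8.68 on the combination, 9.35 on increased and 9.60 on standard cholecalciferol.

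**Figure D2:**
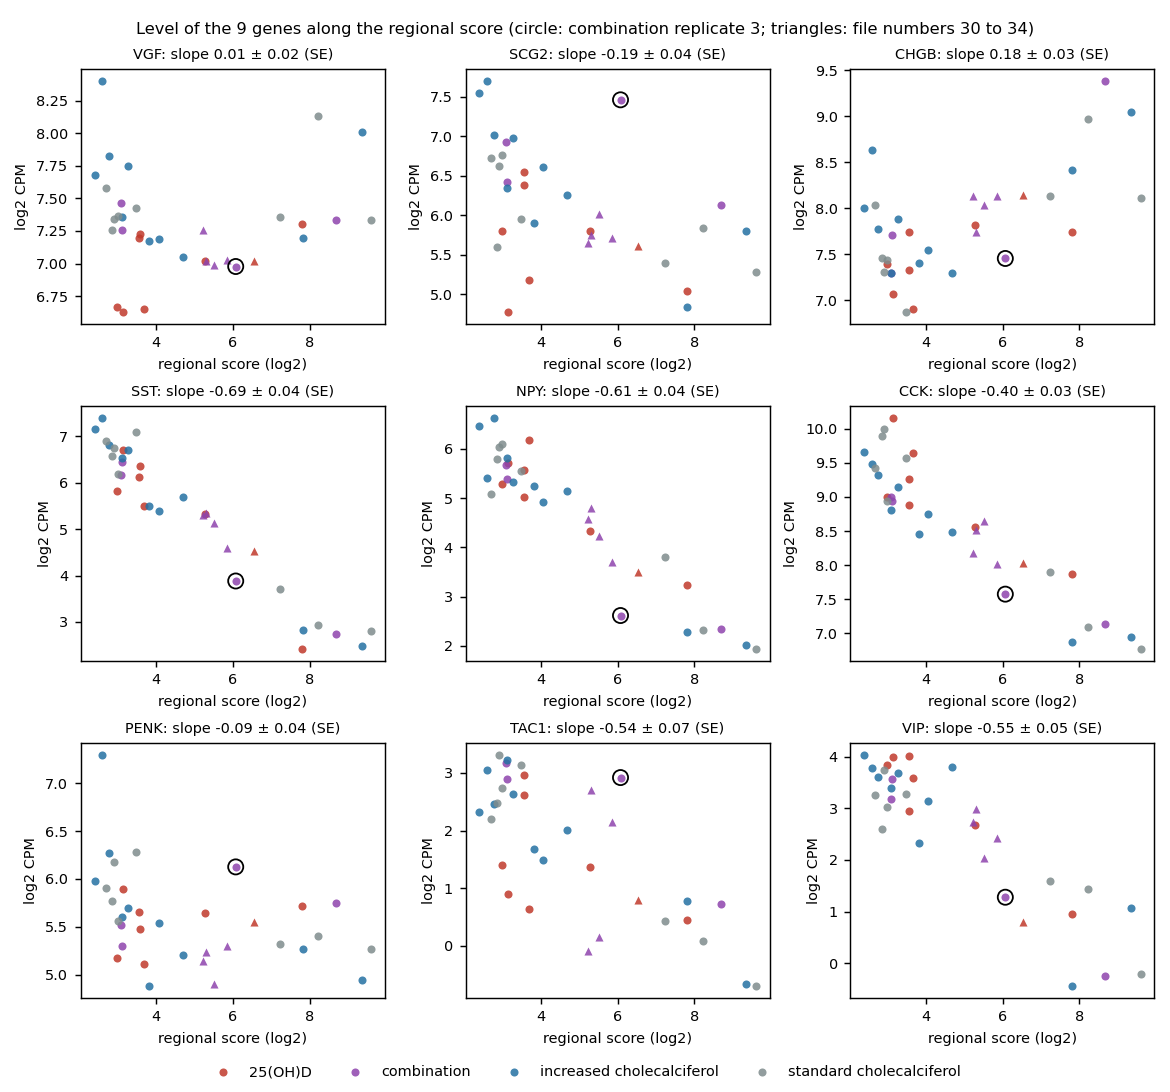
Level of each of the 9 genes (log2 CPM) against the regional score of the library (log2); each point is a library, coloured by diet, with triangles for file numbers 30 to 34 and a circle round combination replicate 3. SST, NPY, CCK and VIP fell along the score, CHGB rose, and VGF had a slope of 0.01 per unit, while combination replicate 3 lay high for SCG2, PENK and TAC1 and low for NPY.

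The granule proteins did not move together along the score. SCG2 had a slope of -0.19 (SE 0.04, adjusted p = 0.000759; -0.20 without combination replicate 3 and file numbers 30 to 34), CHGB one of 0.18 (SE 0.03, adjusted p = 1.50e-05) and VGF one of 0.01 (SE 0.02, 95% interval -0.04 to 0.06, adjusted p = 0.729). The log2 ratio of CHGB to SCG2, a measure chosen after the data were seen, ran from -0.01 to 3.58 and correlated with the score at r = 0.79 (rho = 0.74, n = 34, permutation p = 1e-05, the smallest the permutations can give). The r was 0.77 without the 2 libraries farthest from the median score, 0.75 within file numbers 1 to 24 and 0.87 without combination replicate 3.

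PENK, the enkephalin precursor, had a slope of -0.09 (SE 0.04, adjusted p = 0.0426) that did not withstand small changes. Its adjusted p rose to 0.05 or above when any of 10 of the 34 libraries was left out, and was highest, 0.152, without increased cholecalciferol replicate 1. Without increased cholecalciferol replicate 7, the library with the most PENK (157 CPM), the slope was -0.06. Within file numbers 1 to 24 the adjusted p was 0.0541.

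The share of each gene's variance on the log2 scale that went with the score was 92.9% for SST, 90.0% for NPY, 85.3% for CCK, 80.6% for VIP, 56.8% for TAC1, 42.0% for CHGB, 25.4% for SCG2, 14.8% for PENK and 0.354% for VGF, against a median of 9.12% over all genes tested. By permutation test over 34 libraries with adjustment over the 9 members, Pearson's r with the score was -0.96 for SST (rho -0.94), -0.95 for NPY (rho -0.89), -0.92 for CCK (rho -0.89), -0.90 for VIP (rho -0.80), -0.75 for TAC1 (rho -0.67), 0.65 for CHGB (rho 0.48), -0.50 for SCG2 (rho -0.56), -0.39 for PENK (rho -0.48) and 0.06 for VGF (rho -0.24). Without the 2 libraries farthest from the median score, r was -0.96 for SST, -0.93 for NPY, -0.90 for CCK, -0.89 for VIP, -0.66 for TAC1, 0.61 for CHGB, -0.48 for SCG2 and -0.31 for PENK, where PENK no longer passed (adjusted p = 0.0974). VGF then had r = -0.08 (adjusted p = 0.657), while its rank correlation passed the threshold (rho = -0.37, adjusted p = 0.0358). Within file numbers 1 to 24, CHGB kept r = 0.60 but its rank correlation was 0.24 (adjusted p = 0.263). Without file numbers 30 to 34 the rank correlation of CHGB was 0.33 (adjusted p = 0.0952). PENK then had r = -0.37 (adjusted p = 0.051).

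**Figure D3:**
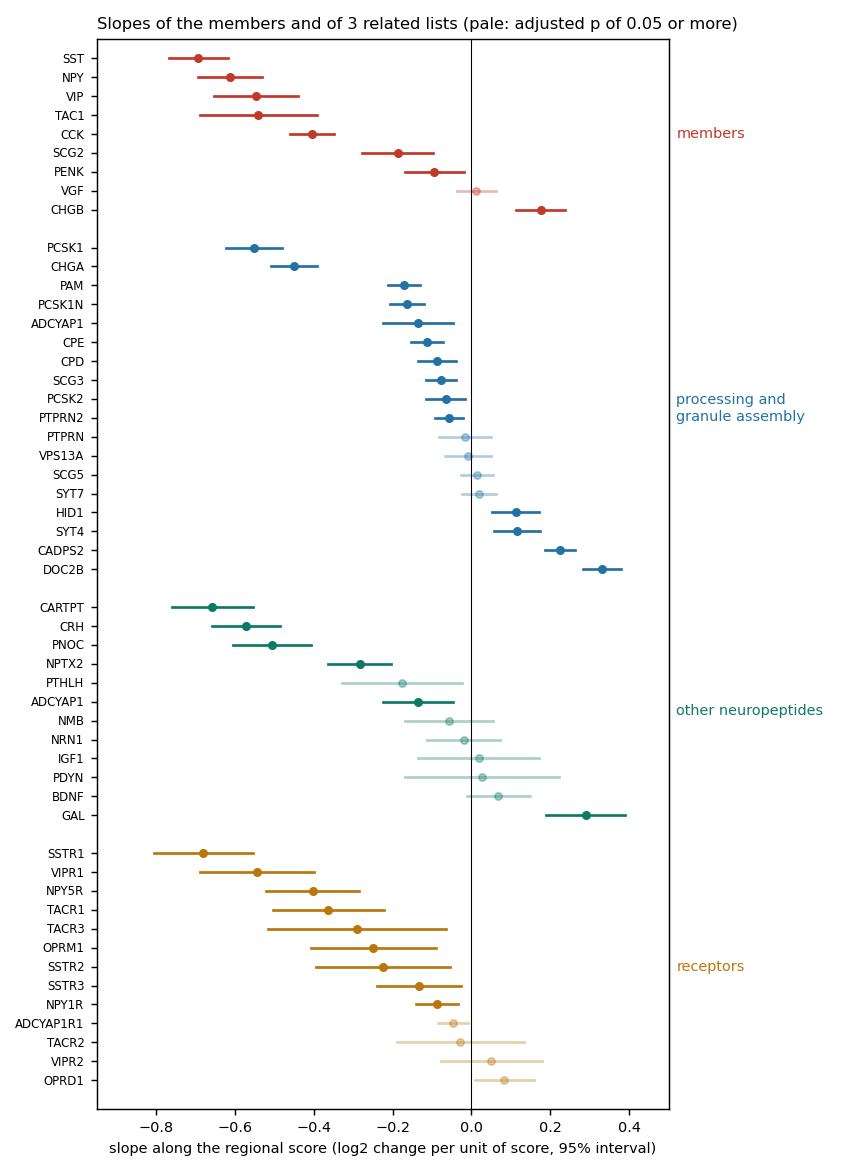
Slope along the regional score (log2 units per unit of score) with its 95% interval for the 9 genes and for all tested genes of 3 related lists, with pale marks where the adjusted p was 0.05 or more. SST sits at -0.69 and CHGB at 0.18, with VGF at 0.01 and its interval across 0.

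Fitted within each diet, 4 of 9 members were called on 25(OH)D (background 9.63%), 5 on the combination (5.20%), 7 on increased cholecalciferol (12%) and 6 on standard cholecalciferol (18.3%). SST had slopes of -0.72 on 25(OH)D, -0.66 on the combination, -0.73 on increased and -0.66 on standard cholecalciferol, all with adjusted p below 0.05. CCK had -0.41, -0.33, -0.40 and -0.44 in the same order, also all called, as were NPY and VIP in each diet. TAC1 was called on increased (-0.57) and standard cholecalciferol (-0.64) and not on 25(OH)D (-0.38, adjusted p = 0.259) or the combination (-0.40, adjusted p = 0.195). CHGB was called on the combination (0.32) and on standard cholecalciferol (0.15) and not on 25(OH)D (0.13) or increased cholecalciferol (0.14). A test of whether slopes differed between diets called none of 13974 genes, 412 of them having an unadjusted p below 0.05. PENK was the only member among these (p = 0.0212, adjusted p = 1.00), with slopes of 0.03, 0.08, -0.21 and -0.11.

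Holding the score constant made the diet estimates of the peptide genes more precise. The SE of a diet difference in SST was 0.59 to 0.63 log2 units without the score and 0.18 to 0.20 with it, while for VGF it was 0.15 to 0.16 without the score and 0.15 with it. With the score in the model no diet pair called any gene. VGF gave -0.62 for 25(OH)D against increased cholecalciferol (p = 0.000145, adjusted p = 0.160), SCG2 gave -0.79 (p = 0.00358, adjusted p = 0.172), and CCK 0.46 (p = 0.00422, adjusted p = 0.176). In that pair 4 of 9 members had an unadjusted p below 0.05, against 15.9% of all genes. In the other pairs the counts were 1 for 25(OH)D against standard cholecalciferol (4.43%), 2 for the combination against increased cholecalciferol (3.69%), 1 for increased against standard cholecalciferol (9.91%), 1 for the combination against standard cholecalciferol (6.03%) and 3 for 25(OH)D against the combination (8.34%).

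Among themselves the members formed a tight set and a loose one. Of 36 pairs, 26 correlated at an adjusted p below 0.05 (permutation test, n = 34), 21 positively. SST correlated with NPY at r = 0.92 (rho 0.85), with CCK at r = 0.92 (rho 0.91) and with VIP at r = 0.90 (rho 0.84). The 5 negative pairs all held CHGB, with NPY at r = -0.68, CCK at -0.65, VIP at -0.59, SST at -0.57 and TAC1 at -0.49. Once each gene's line on the score was subtracted, 6 pairs passed the threshold, all positive: VGF with CHGB (r = 0.66), VGF with SCG2 (0.61), VGF with PENK (0.52), SCG2 with TAC1 (0.49), SCG2 with CHGB (0.48) and SCG2 with PENK (0.45). As measured, SCG2 with CHGB had not passed (r = -0.01, adjusted p = 0.963). By rank correlation only VGF with SCG2 passed (rho 0.56, adjusted p = 0.0259). Leaving out the 2 libraries with the most extreme VGF, the r of VGF with PENK was 0.30. Leaving out combination replicate 3, the r of VGF with SCG2 was 0.75.

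**Figure D4:**
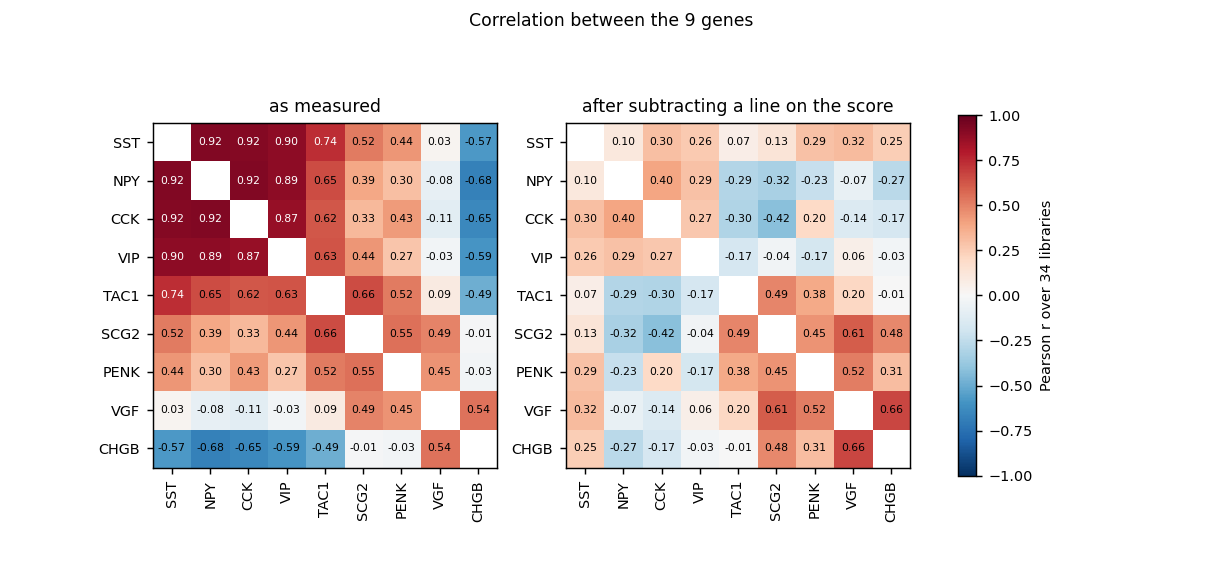
Pearson's r for the 36 pairs of members over 34 libraries, as measured and after subtraction of each gene's line on the regional score. SST, NPY, CCK and VIP correlate at 0.87 to 0.92 as measured, and CHGB is negative with SST, NPY, CCK, VIP and TAC1.

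The genes that make and pack these peptides were read along the same score, where 18.3% of all genes tested fell and 19.3% rose. Of 18 tested genes for prohormone processing and granule assembly, 10 fell and 4 rose, the rise near the share of all genes, with a median slope of -0.06 against 0.00 over all genes. No test compared a list with these shares. PCSK1, the prohormone convertase 1/3 gene, fell by 0.55 per unit, CHGA (chromogranin A) by 0.45, PAM (peptide amidation) by 0.17, PCSK1N (a convertase inhibitor precursor) by 0.16, CPE (carboxypeptidase E) by 0.11 and SCG3 (secretogranin III) by 0.08. DOC2B and CADPS2, which act in vesicle release, rose by 0.33 and 0.22, SYT4 by 0.12 and HID1 by 0.11. CHGA and CHGB, the 2 chromogranin genes, thus had slopes of opposite sign.

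Of 12 tested genes on the list of other neuropeptides, 5 fell and 1 rose, against 18.3% and 19.3% of all genes, with a median of -0.10. That list also held BDNF, IGF1, NRN1 and NPTX2, which are not neuropeptides and are part of these counts. BDNF (0.07), IGF1 (0.02) and NRN1 (-0.02) did not pass. CARTPT fell by 0.66, CRH (corticotropin-releasing hormone) by 0.57, PNOC (nociceptin precursor) by 0.51, NPTX2, a secreted pentraxin on that list, by 0.28 and ADCYAP1 (PACAP, which stands on the processing list too) by 0.14, while GAL (galanin) rose by 0.29. Of 13 receptor genes tested, 9 fell and none rose, with a median of -0.23. SSTR1, a somatostatin receptor, fell by 0.68 and VIPR1, a VIP receptor, by 0.55. NPY5R fell by 0.40 and TACR1, the receptor of the TAC1 product substance P, by 0.36. OPRM1, the mu opioid receptor, fell by 0.25 and NPY1R by 0.09. No gene of these lists was called between diets.

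Genes of the neuron classes that make these peptides were set against the same shares of all genes, 18.3% lower and 19.3% higher. Of 14 forebrain interneuron genes 9 fell and 3 rose, with a median of -0.14. CRHBP fell by 0.61, DLX1 and DLX6 by 0.56 each and LHX6 by 0.35, all genes of inhibitory neurons or their development. RELN rose by 0.34, CALB2 by 0.19 and SLC32A1, also a gene of inhibitory neurons, by 0.08. CALB2 was highest in combination replicate 3, at 226 CPM against a median of 40.0 CPM. The GABA-synthesizing enzymes GAD1 and GAD2 did not pass, with slopes of -0.15 and -0.01. Of 9 cortical pyramidal genes 5 fell, among them CAMK2A by 0.45 and CUX2 by 0.42, and NEUROD2 rose by 0.16; the median was -0.21. Of 10 pan-neuronal genes 4 fell and 2 rose, the rise at about the share of all genes, with a median of -0.01.

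Each member was matched with up to 3 genes of most similar rank pattern over 34 libraries, among 11125 genes with a symbol. CCK was most like KCNV1 (rho 0.97) and CACNG3 (0.96). SST was most like NECAB3 (0.95), CPNE6 (0.95) and FGL2 (0.94), and NPY like GRIA3 (0.92), FAM163B (0.92) and MSC (0.89). VIP was most like C11orf97 (0.91), CXCL14 (0.90) and DDN (0.89), and TAC1 like EDIL3 (0.80), ADCY5 (0.80) and GABRA4 (0.79). SCG2 was most like SELENOS (0.89), FRMPD3 (0.83) and ITM2A (0.83), and CHGB like CA4 (0.88), PYGB (0.85) and DUSP4 (0.85). VGF and PENK had the weakest matches, RAP1GAP2 (0.79), SCRN1 (0.71) and IDS (0.71) for VGF and ATP6V0D1 (0.69), TTPAL (0.69) and FAM111A (0.68) for PENK.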

How the data were processed

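The data are 34 libraries, taken as 1 per pig, made with a QuantSeq 3′ forward kit from Trizol RNA per the labels' protocols. The submitters' processing notes list FastQC, TopHat, HTSeq and DESeq2. Their versions, the build and the gene models: not given in the sources used here. Raw read counts per gene, for 31907 genes, were deposited by the authors, with 5 HTSeq category lines per file that were left out (16.4 to 29.9% of reads lay outside features and 11.2 to 20.7% aligned to several places). Use of strand in counting: not given in the sources.

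From these counts, edgeR 4.0.16 in R 4.3.3 with TMM scaling was fitted over all 34 libraries with diet and sex, for the 13974 genes kept by the expression filter by diet, and p-values were adjusted by the Benjamini-Hochberg method over those genes at a threshold of 0.05. DESeq2 1.42.0 and limma 3.58.1 were alternatives. Log2 CPM used a prior count of 3. Correlations used 100000 permutations. The script was tested on simulated data. All 9 members, the score genes, and up to 6 genes per list and direction by smallest p are named. The lists covered prohormone processing, other neuropeptides, receptors, interneuron, pyramidal, striatal, hypothalamic and pituitary, islet, chromaffin and enteric, muscle, pan-neuronal and activity-regulated genes. The members and lists were chosen with earlier results of these data known. Replicate numbers follow accession order. The series counts individuals per diet, so p-values are read against the spread between libraries of different animals. That spread also holds differences in the material sampled, which 1 library per pig cannot separate from differences between animals. Depth was 1.34 M to 30.4 M counts (M, 1000000 counts). Gene coordinates and sequences were not used here. A few genes that the naming rule selects are not reported here.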

Additional observations from a re-analysis of the deposited data

Results flagged for a closer look

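Of 36 gene and diet groups, 2 held a library far from the others, where chance flags about 1 in 20. VGF was at 280 CPM in standard cholecalciferol replicate 6, the highest of 8, and CHGB was at 669 CPM in combination replicate 1, the highest of 8. Standard cholecalciferol replicate 6 also held the most CHGB of its diet, 500.4 CPM, while combination replicate 1 held 161 CPM VGF, inside the range of its diet. The interaction test of slopes between diets called no member.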

How the results depend on the processing

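No member was called between diets or sexes under any alternative, and each range over single left-out libraries was 0 to 0. Genes called between the combination and increased cholecalciferol were 0 in the main fit, 1 with file-number run as a model term, 1 without file numbers 30 to 34 and 2 within file numbers 1 to 24. Genes called between 25(OH)D and the combination were 0, 2 without file numbers 30 to 34 and 8 within file numbers 1 to 24. Females against castrated males gave 11 genes, 18 with the run term and 11 to 13 with a library left out. Members called along the score were 8, or 7 within file numbers 1 to 24, with a score from CBLN3 and TBR1 alone, and in some left-out fits (7 to 8). All genes called along the score were 5262, and 4726 to 5440 with a library left out. Between members 26 pairs correlated, and 6 after the score was subtracted. The VGF slope changed sign to -0.000124 within file numbers 1 to 24 and ran from -0.00299 to 0.0267 with a library left out. The correlation of VGF with the score was -0.0825 without the 2 farthest libraries, where its rank correlation was -0.37 (adjusted p = 0.0358). The TAC1 difference between the combination and increased cholecalciferol ran from -0.14 to 0.29 with a library left out. The cause of these changes was not tested. No paired analysis was possible because replicate numbers only follow accession order. TAC1 and VIP, whose lowest counts in any library were 1 and 2, are limited by depth.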

Other observations

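Genes induced by neuronal activity were read along the score too, where 18.3% of all genes tested fell and 19.3% rose. Of 12 tested, with a median slope of -0.05, 5 fell, among them ARC by 0.53, EGR2 by 0.53, EGR1 by 0.30 and HOMER1 by 0.22 log2 units per unit of score, and 2 rose, IER2 by 0.17 and NR4A2 by 0.13. FOS (0.10) and NPAS4 (-0.08) did not pass. Of 6 striatal projection neuron genes 3 fell, DRD1 by 0.56, MEIS2 by 0.28 and FOXP1 by 0.18, with a median slope of -0.14. Of 9 skeletal muscle genes only PYGM passed (0.08), and ACTA1 (-0.02) and CKM (0.02) did not. CGA, the tested gene of the hypothalamic and pituitary list, fell by 0.49 at a mean of 0.890 CPM. RET, that of the islet, chromaffin and enteric list, rose by 0.25 at a mean of 1.62 CPM. It was highest in combination replicate 3, and its slope without that library is not given here.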
